A study of Mus musculus with 121 samples.

Results

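The circadian clock genes described here are 10 of the 24412 genes in the table of raw counts deposited by the authors. They were found in the table by symbol: Arntl (whose protein is also called BMAL), Clock and Npas2, then Per1, Per2, Per3, Cry1 and Cry2, then Nr1d1, and last Dbp. All 10 symbols were found, and each passed the filter on low counts in every model and region.

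The circadian clock is a feedback loop of transcription that runs with a period of about a day. ARNTL pairs with CLOCK or NPAS2, binds E-box sequences and switches on the Per and Cry genes, whose proteins then inhibit that pair. The same pair drives Nr1d1, whose protein represses Arntl, and Dbp, which carries the rhythm to other genes, so in many tissues Arntl RNA peaks at about the opposite time of day to Nr1d1 and Dbp RNA. The master pacemaker is the suprachiasmatic nucleus of the hypothalamus, and cells of cortex, striatum and midbrain hold clocks of their own.

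The study raised Gdnf expression from its own locus with a conditional allele (cKU) that Cre recombinase switches on. Libraries of bulk RNA came from 43 male mice of a mixed 129Ola/ICR/C57bl6 background, from prefrontal cortex (PFC), striatum (STR) and substantia nigra (SN). Genotypes were wt/wt (WT), wt/cKU (HET) and cKU/cKU (HOM). The 21 GDNF cKU x Nestin-Cre mice, called Nestin-Cre mice below, were untreated and 2 months old, and their Cre is driven throughout the central nervous system from mid-gestation. They gave 56 libraries, from 8 WT, 6 HET and 4 HOM mice in PFC, 6 WT, 7 HET and 6 HOM in STR, and 6 WT, 7 HET and 6 HOM in SN. The 22 GDNF cKU +AAV-Cre mice, called AAV-Cre mice below, received AAV-Cre into both striata at 3-5 months and were 5-7 months old, 2 months after injection, when tissue was taken. They gave 65 libraries, from 7 WT, 7 HET and 8 HOM mice in PFC, 7 of each genotype in STR, and 7 WT, 7 HET and 8 HOM in SN. The WT mice of this model were injected as well.

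All mice lived in 12-h light and dark with lights on at 6 a.m. The time of day at which tissue was collected is not given in the labels, so every level below belongs to an unknown phase of the cycle. A difference between genotypes or between models cannot be told apart from a difference in collection time. The regions come largely from the same mice. The labels of 1 Nestin-Cre mouse disagree, since they call it WT for PFC and HOM for STR and SN. The labels were used as given, and the animal is called the mouse with 2 labels below. Several results that rest on it, but not all, are given with and without it.

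Total counts per library ran from 9869584 to 26750905, with a median of 17885830. Levels are cpm, the counts scaled to the library size after TMM normalization. A clock gene had between 54 counts (Npas2 in a Nestin-Cre HOM SN library) and 5236 counts (Dbp in a Nestin-Cre HOM STR library). Counting error weighs most at the low counts, as for Npas2 in SN, and its part in the spread between mice was not tested.

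Gdnf (Entrez 14573, chr15:7810048-7837580), the gene the allele acts on, was checked before the clock genes. In AAV-Cre STR it ran from 5.34 to 7.51 cpm in WT (median 6.78), from 6.36 to 9.58 in HET (median 7.52) and from 7.62 to 9.96 in HOM mice (median 8.61). All 7 HOM mice lay above all 7 WT mice, while HET mice overlapped both groups. The HOM difference was a log2 fold change of 0.40 (SE 0.09) with an adjusted p of 0.504, which does not pass the threshold of 0.1 set on all genes. In Nestin-Cre STR the means were 5.97 ± 1.26 cpm (SD) in WT, 6.24 ± 1.83 in HET and 7.19 ± 1.46 in HOM mice, and the groups overlapped. Group means in PFC and SN were only 0.254 to 1.06 cpm. The paper describes the mRNA of the recombined allele as carrying a short 3'UTR. Counts over all exon bases of Gdnf need therefore not show the whole of a rise, and this was not tested. By qPCR, a different measure, the paper reports raised Gdnf mRNA in striatum of both models.

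Markers of each region were high where the labels place them. In WT mice the summed level of 8 striatal projection neuron markers averaged 10092 cpm in STR of Nestin-Cre and 7146 cpm in STR of AAV-Cre mice, against 579 and 973 cpm in PFC and 267 and 362 cpm in SN. Summed levels of 6 cortical excitatory markers averaged 2157 and 1858 cpm in PFC, and at most 148 cpm elsewhere. Summed levels of 6 dopamine neuron markers averaged 3719 and 3476 cpm in SN, and at most 91.8 cpm elsewhere. Glial markers also differed between regions. Summed levels of 7 oligodendrocyte markers, Mbp the most abundant, averaged 25414 and 16337 cpm in SN, against 8350 and 9731 cpm in STR and 5243 and 4607 cpm in PFC. Summed levels of 5 astrocyte markers averaged 3066 and 2127 cpm in SN, against 1137 and 1210 cpm in STR and 1431 and 1550 cpm in PFC. In both models the WT averages of these 3 lists of neuron markers were thus highest in STR, PFC and SN in turn.

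Arntl (Entrez 11865, chr7:113207465-113314126), the activator that both partners need, averaged 50.5 ± 13.4 cpm in PFC, 61.3 ± 18.9 in STR and 23.3 ± 6.89 in SN of Nestin-Cre WT mice. The AAV-Cre WT means were 47.2 ± 7.41, 45.4 ± 6.39 and 23.5 ± 3.45 cpm. SN was the low region in both models, and in all 5 Nestin-Cre and all 7 AAV-Cre WT mice with both libraries the SN value lay below the STR value. The log2 difference of SN from STR was -1.41 (SE 0.20, adjusted p 1.54e-08) in Nestin-Cre and -0.98 (SE 0.14, adjusted p 3.6e-09) in AAV-Cre mice. STR and PFC did not differ past the threshold (adjusted p 0.157 and 0.706). Without the mouse with 2 labels, whose PFC library is the highest of the Nestin-Cre WT group, the Nestin-Cre STR to PFC difference became 0.41 with an adjusted p of 0.0261. With all mice kept and mouse as a paired block it passed too, at 0.23 (adjusted p 0.0163, range over alternatives 0.0163 to 0.225).

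Clock (Entrez 12753, chr5:76209868-76304792), a partner of ARNTL in most tissues, had close to the same level everywhere. Its WT group means lay between 106 and 129.7 cpm in all 6 sets of a model and a region. Single WT mice ran from 106 to 138 cpm in Nestin-Cre PFC, from 111 to 145 in STR and from 99.7 to 114 in SN, so the regions overlapped. SN was nonetheless lower than STR in Nestin-Cre mice by a small step of -0.23 on the log2 scale (SE 0.08, adjusted p 0.00813), seen in 5 of 5 paired mice and lost under the likelihood ratio test (adjusted p 0.103, range over alternatives 0.00454 to 0.103). The same difference in AAV-Cre mice was -0.09 (adjusted p 0.19), and it was not tested whether the models differ in it. Clock was also called lower in SN than in PFC of Nestin-Cre mice, with a mean step of -0.24 ± 0.09 in 5 paired WT mice. In AAV-Cre mice STR lay above PFC in 7 of 7 paired WT mice, by 0.16 ± 0.09. There the edgeR fit of WT libraries only called SN above PFC, at 0.10 (adjusted p 0.0547).

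Npas2 (Entrez 18143, chr1:39194272-39363240), the partner that can stand in for CLOCK in the forebrain, differed most between regions. In Nestin-Cre WT mice it ran from 56.4 to 72.1 cpm in PFC (median 65.3), from 75.5 to 106 in STR (median 85.9) and from 4.07 to 10.6 in SN (median 7.73). In AAV-Cre WT mice the ranges were 68.7 to 92.0 cpm in PFC (median 79.9), 84.2 to 112 in STR (median 95.5) and 8.14 to 15.4 in SN (median 9.82). Every SN value was far below every STR and PFC value. The log2 difference of SN from STR was -3.53 (SE 0.24, adjusted p 2.39e-18) in Nestin-Cre and -3.22 (SE 0.11, adjusted p 2.61e-34) in AAV-Cre mice, the largest of the 60 region differences of clock genes. STR was above PFC by 0.47 (adjusted p 0.038) and 0.25 (adjusted p 0.0246), in 5 of 5 and 7 of 7 paired WT mice. In bulk tissue, fewer cells of a type and less RNA per cell cannot be told apart, and the part of the glial markers, higher in SN, in this and the other low SN levels was not tested.

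The Per genes, whose proteins carry the inhibition, shared the low level in SN. Per1 (Entrez 18626, chr11:69098956-69109957), which light, activity and glucocorticoids can also induce, averaged 95.2 ± 18.2 cpm in PFC, 98.0 ± 27.1 in STR and 28.9 ± 12.2 in SN of Nestin-Cre WT mice. In AAV-Cre WT mice it averaged 101 ± 9.68, 117 ± 16.01 and 45.8 ± 6.10 cpm. SN lay below STR by a log2 difference of -1.78 and -1.38 in the 2 models, in every paired WT mouse. Per2 (Entrez 18627, chr1:91415982-91459328), the paralogue whose protein works closest with the CRY proteins, had SN differences from STR of -1.67 and -1.12. Its WT mean was 19.3 ± 5.99 cpm in Nestin-Cre SN against 60.7 ± 12.8 in STR, and the groups did not overlap. Per3 (Entrez 18628, chr4:151003655-151044665), the paralogue with the weakest part in timekeeping, had the smallest step of the family, -0.85 and -0.86. In Nestin-Cre mice its SN and STR ranges met, at 30.0 to 62.9 against 51.4 to 110 cpm.

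The Cry genes code for the stronger repressors of the loop and differed from each other between regions. Cry1 (Entrez 12952, chr10:85131700-85185054) ran from 19.9 to 29.6 cpm in PFC (median 21.6), from 36.6 to 46.7 in STR (median 38.6) and from 16.9 to 21.0 in SN (median 19.3) of Nestin-Cre WT mice. STR stood apart, above all PFC and SN values, and the same held in AAV-Cre WT mice with 22.5 to 29.5 cpm in STR against at most 20.8 elsewhere. The log2 difference of STR from PFC was 0.81 (SE 0.12, adjusted p 1.45e-07) and 0.62 (SE 0.11, adjusted p 3.21e-06). Cry2 (Entrez 12953, chr2:92403647-92434069) showed no such rise in STR. It averaged 185 ± 13.4 cpm in PFC, 162 ± 22.3 in STR and 79.6 ± 10.4 in SN of Nestin-Cre WT mice, and its difference of STR from PFC just missed the threshold (log2 difference -0.18, adjusted p 0.101). With mouse as a paired block it passed in both models, at -0.20 (adjusted p 0.0591, range over alternatives 0.057 to 0.232) and -0.09 (adjusted p 0.0499, range 0.0499 to 0.353), and DESeq2 called it in Nestin-Cre mice (adjusted p 0.0925). SN was lower than STR by -1.05 and -0.73 in the 2 models.

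Nr1d1 (Entrez 217166, chr11:98767932-98775377), the nuclear receptor that represses Arntl, ran from 69.0 to 186 cpm in PFC (median 127), from 49.3 to 167 in STR (median 109) and from 36.6 to 73.3 in SN (median 53.3) of Nestin-Cre WT mice. PFC and STR overlapped almost fully, and SN overlapped with the lowest mice of both. SN was below STR by a log2 difference of -0.93 (adjusted p 0.00236) in Nestin-Cre and -0.84 (adjusted p 3.92e-08) in AAV-Cre mice.

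Dbp (Entrez 13170, chr7:45705247-45710203), the output factor that binds D-boxes, was, like Cry1, highest in STR. In Nestin-Cre WT mice it ran from 16.6 to 98.3 cpm in PFC (median 69.1), from 87.0 to 275 in STR (median 195) and from 27.9 to 81.4 in SN (median 56.7). In AAV-Cre WT mice it ran from 46.2 to 93.0 cpm in PFC (median 62.0), from 118 to 199 in STR (median 161) and from 40.1 to 75.8 in SN (median 43.5). STR was the high region in both models, with overlap in Nestin-Cre mice between the lowest STR mouse and the highest PFC mouse, and none in AAV-Cre mice. STR exceeded PFC by a log2 difference of 1.57 (SE 0.32, adjusted p 4.96e-05) and 1.28 (SE 0.19, adjusted p 2.8e-08). Within a mouse the step was steadier than the groups show: it was positive in 5 of 5 and 7 of 7 WT mice, with means of 1.54 ± 0.22 and 1.30 ± 0.26. SN differed less from PFC, by -0.21 (adjusted p 0.579) and -0.38 (adjusted p 0.0685). With mouse as a paired block the Nestin-Cre difference of SN from PFC was -0.30 with an adjusted p of 0.0424 (range over alternatives 0.0424 to 0.708).

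**Figure D1:**
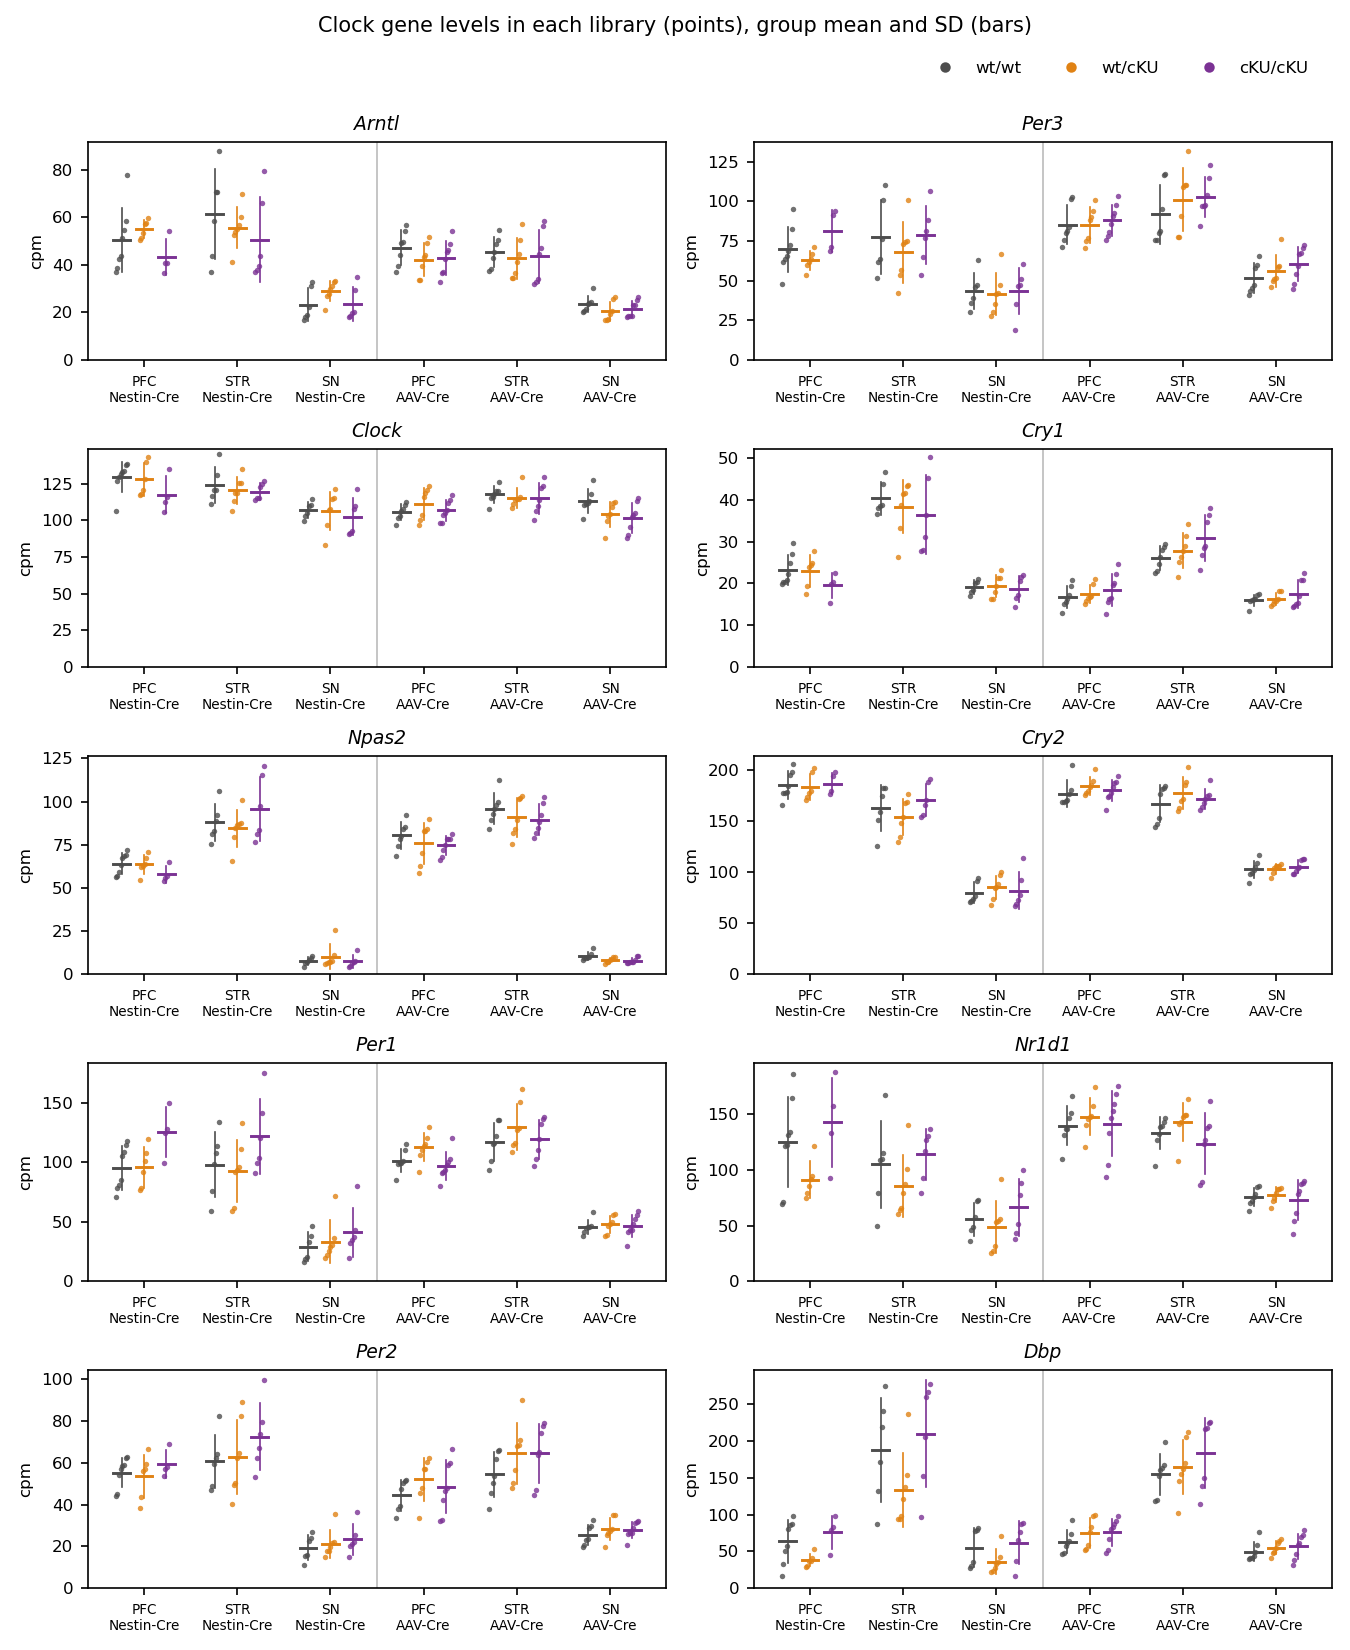
Level of each clock gene in every library (vertical axes, cpm) by region, model and genotype, with bars for the group mean and SD. Npas2 in SN of WT mice lies between 4.07 and 15.4 cpm, below every PFC and STR value, and Dbp is highest in STR.

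Counted over the 10 genes, 3 were higher in STR than in PFC of Nestin-Cre mice (33.2% of all genes tested) and 5 in AAV-Cre mice (33.8%), and 0 were lower in either by the edgeR test, where 31.3% and 31.6% of all genes were lower. Cry2 was called lower in STR by DESeq2 in Nestin-Cre mice and with mouse as a paired block in both models. Nr1d1 was called lower in STR of Nestin-Cre mice by the likelihood ratio test, at -0.24 (adjusted p 0.0726). Per2 was called higher in STR of AAV-Cre mice with mouse as a paired block, at 0.28 (adjusted p 0.00864, range over alternatives 0.0016 to 0.124), in 7 of 7 WT mice. Lower in SN than in STR were 10 of 10 clock genes in Nestin-Cre (36.7% of all genes) and 9 of 10 in AAV-Cre mice (38.2%). Lower in SN than in PFC were 9 of 10 (38.7% of all genes) and 8 of 10 (38.1%). The median log2 difference of the 10 genes between SN and STR was -1.25 and -0.92, beside medians over all genes of 0.01 and -0.01. The share of clock genes higher in STR than in PFC was thus near the background in Nestin-Cre mice. In AAV-Cre mice it was 5 of 10 beside 33.8%, which was not tested. Of these 5, Per1 was lost with no filter on low counts (adjusted p 0.108). In SN nearly every clock gene was lower. With mouse as a paired block 49 of the 60 region differences passed in place of 44, and DESeq2 called 45.

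Levels of different genes were compared per kilobase of exon. In WT STR the order was led by Dbp at 112 ± 42.0 cpm per kb (Nestin-Cre) and 92.1 ± 16.8 (AAV-Cre), clear of Cry2 and Nr1d1 at 37.9 to 48.0. Of the exon bases of Dbp 32.1% overlap Sphk2 on the other strand, and since the strand setting of the counting is not stated, reads of Sphk2 in the level of Dbp cannot be told apart. Likewise 9.51% of the exon bases of Nr1d1 overlap Thra and 3.72% of those of Cry2 overlap D930015M05Rik, each on the other strand. Dbp, Nr1d1 and Cry2 were also the 3 highest in PFC and SN of both models, where each differed from its neighbour by less than the sum of their SDs. In SN, Cry2 was clear of the next gene, Clock, at 25.6 ± 2.11 against 11.4 ± 0.809 cpm per kb in AAV-Cre mice, and Npas2 was last at 2.499 ± 0.575. In PFC and STR, Per1, Arntl and Npas2 followed in the middle. Per2 and Cry1 were the lowest in PFC of both models and in AAV-Cre STR, at 5.58 to 9.47 cpm per kb, while in Nestin-Cre STR Cry1 stood at 13.4 ± 1.30, above Per3 and Clock by less than their spread. Most neighbours in the middle did not differ beyond their spread, as for Arntl, Npas2 and Per1 in Nestin-Cre STR at 21.1 ± 6.51, 21.0 ± 2.58 and 20.9 ± 5.78.

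A fixed list of 25 other clock genes (paralogues, accessory loops, kinases and ligases of the clock proteins) passed the region tests in 120 of 150 cases, 44 higher and 76 lower. Of the list 29.3% of cases were thus higher and 50.7% lower, beside 35.7% and 35.8% over all genes in the same comparisons, untested and over comparisons that share libraries. The lower share was largest for SN against PFC, 64% in both models beside 38.7% and 38.1%, and was 36% beside 38.2% for SN against STR of AAV-Cre mice. Fbxl21, a ligase for CRY proteins, was higher in STR than in PFC by log2 differences of 0.78 (Nestin-Cre) and 1.25 (AAV-Cre). Among the lowest in SN were the phosphatase Ppp1ca (-1.80 and -1.54 from STR), the deubiquitinase Usp2 (-1.66 and -1.71) and Hlf (-1.60 and -1.10). In the other direction the highest differences of the list in SN were 2.70 and 2.12 from PFC, and 1.47 and 0.90 from STR. Hlf and Tef are the paralogues of Dbp. Tef was lower in SN than in STR by -1.55 and -1.20, and higher in STR than in PFC by 0.48 and 0.31. Nr1d2, the paralogue of Nr1d1, went the other way in SN, 0.50 and 0.43 above PFC. Rora was above STR in SN by 0.52 and 0.22, and Rorb was below PFC in STR by -0.94 and -0.88. Bhlhe40, a repressor of the ARNTL pair, was lower in STR than in PFC by -1.48 and -0.99. Nfil3, the repressor that competes with DBP for D-boxes, was lower in STR than in PFC by -0.89 and -0.78. Ciart, which represses the same pair, was lower in SN than in STR by -0.94 and -0.96.

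Whether the allele changes the clock genes was asked by comparing HET and HOM with WT in each model and region. In these 12 comparisons 0 of 10 clock genes passed each time by the edgeR test, where 0.25% of all genes passed for Nestin-Cre HOM PFC, 0.0137% for AAV-Cre HOM PFC and 0% in the other 10. Of the 120 differences 7 had an unadjusted p under 0.05 (5.83%, beside 8.3% of all genes), and the lowest adjusted p was 0.288. DESeq2 called 0 as well, with 7 under an unadjusted p of 0.05 and 6 without an adjusted p by its own filter, and the likelihood ratio test of edgeR called 7, where that test called 2.36% of all genes over the 12 comparisons. In no comparison were the groups of any clock gene free of overlap, and the share of all genes free of overlap was not counted.

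Dbp gave the widest of these differences, in Nestin-Cre HET mice. In PFC it ran from 29.5 to 53.5 cpm in HET (median 37.3), from 16.6 to 98.3 in WT (median 69.1) and from 44.6 to 97.6 in the 4 HOM mice (median 80.9). All 6 HET mice lay below the WT mean, yet within the WT range, whose lowest value belongs to the mouse with 2 labels. The HET difference was -0.72 on the log2 scale (SE 0.28, 95% interval -1.31 to -0.14, unadjusted p 0.0183, adjusted p 0.402). Without the mouse with 2 labels it was -0.86 (SE 0.22, unadjusted p 0.000903, adjusted p 0.115), the WT range narrowed to 32.7 to 98.3 cpm, and the threshold was still not passed. Of the alternatives only the likelihood ratio test called it (SE 0.08, adjusted p 3.68e-15). That test took the spread of a gene from the trend over all genes and not from the gene itself. In STR and SN the HET difference was -0.48 (adjusted p 0.364) and -0.63 (adjusted p 0.518), with 6 of 7 HET mice below the WT mean in each. The HET mice of the 3 regions are largely the same animals, so the regions are not independent. In AAV-Cre mice the HET differences of Dbp had the other sign, 0.23, 0.08 and 0.15 in PFC, STR and SN, and did not pass either.

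Nr1d1 ran from 74.9 to 122 cpm in Nestin-Cre HET PFC (median 88.5) against 69.0 to 186 in WT (median 127). All 6 HET mice were below the WT mean and inside the WT range, with a log2 difference of -0.44 (adjusted p 0.463). The lowest WT value belongs to the mouse with 2 labels, and the estimate without it is not given. Per1 in Nestin-Cre HOM PFC had values from 99.3 to 150.1 cpm (median 126) against 71.2 to 118 in WT (median 94.99). All 4 HOM mice were above the WT mean, and the ranges met. The lowest WT value of Per1 also belongs to the mouse with 2 labels, and without it WT ran from 78.4 to 118 cpm. The log2 difference was 0.42 (SE 0.14, 95% interval 0.12 to 0.71, adjusted p 0.288). The other unadjusted p under 0.05 were for Npas2 in AAV-Cre SN, HET -0.35 and HOM -0.40 (with 1 WT library at 15.4 cpm that also has the highest striatal marker sum of the set, 797 cpm against a median of 285), Clock in AAV-Cre HOM SN, -0.16, and Cry1 in AAV-Cre HOM STR, 0.25, with adjusted p from 0.563 to 1.00. Over the 12 comparisons the log2 differences of Arntl ran from -0.26 to 0.31. Those of Per2 ran from -0.04 to 0.28 and those of Per3 from -0.18 to 0.24. Those of Cry2 ran from -0.07 to 0.09, the narrowest range.

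**Figure D2:**
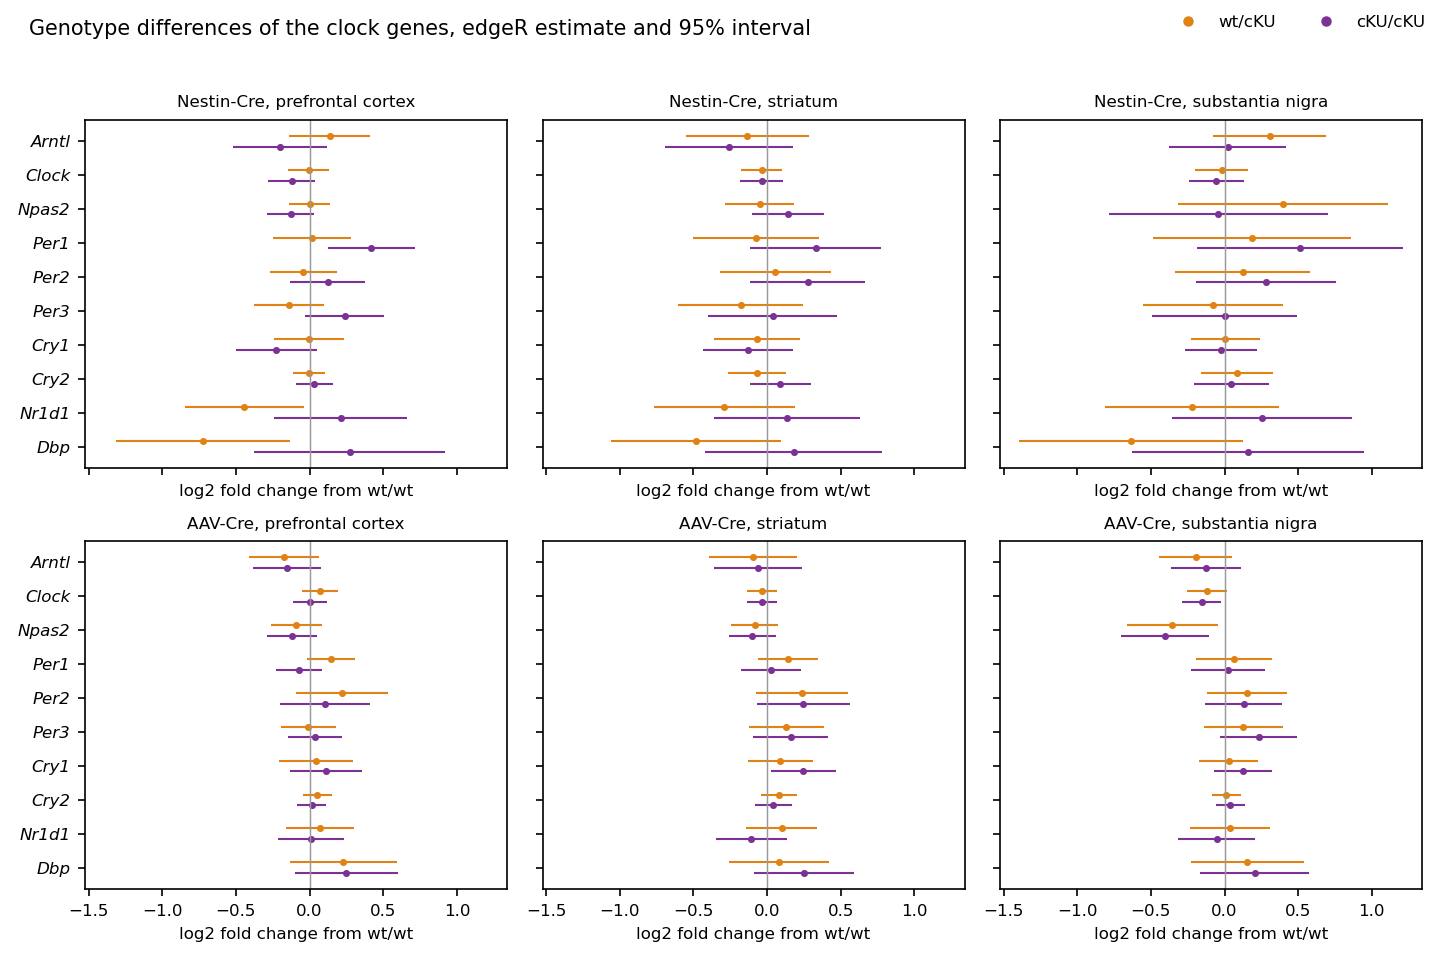
Log2 fold change of each clock gene against WT (horizontal axis) with 95% intervals as bars, for HET and HOM in each model and region. The widest shift is that of Dbp in Nestin-Cre HET mice (-0.72 in PFC), and 0 of the 120 differences pass an adjusted p of 0.1.

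Whether a genotype difference itself differs between regions was tested by the interaction. Again 0 of 120 passed by edgeR, with 4 under an unadjusted p of 0.05, and DESeq2 called 0, with 4 under that p. Among all genes 0%, 0.013% and 0.0649% passed for HET in Nestin-Cre mice (STR against PFC, SN against PFC, SN against STR) and 0% in each of the 3 for HOM. In AAV-Cre mice 0%, 0.0194% and 0.00648% passed for HET and 0%, 0.188% and 0.00648% for HOM. With mouse as a paired block 1 passed, Npas2 for HOM in SN against PFC of AAV-Cre mice, at -0.31 with an adjusted p of 0.099 (range over alternatives 0.099 to 0.415). The WT group in SN holds the library of 15.4 cpm of Npas2 named above, and the difference without it was not tested. Of the 25 other clock genes, 0 of 300 genotype differences and 0 of 300 interactions passed by edgeR, with 27 and 23 under an unadjusted p of 0.05 (9% and 7.67%, beside 8.3% and 6.02% of all genes).

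WT mice of the models were compared region by region. They differ in age, injection, transgene and any batch together, and these cannot be told apart. In PFC 5 of 10 clock genes passed (48.1% of all genes), in STR 3 (60.6%) and in SN 4 (60.5%). The difference of these shares from the background was not tested, and calls gained or lost under an alternative are given below. Cry1 was lower in AAV-Cre mice in all 3 regions, by log2 differences of -0.43 (adjusted p 0.00392) in PFC, -0.60 (adjusted p 0.000293) in STR and -0.29 (adjusted p 0.0199) in SN. Its STR ranges were 22.5 to 29.5 cpm in AAV-Cre against 36.6 to 46.7 in Nestin-Cre WT mice, with no overlap. Npas2 was higher in AAV-Cre PFC by 0.36 (adjusted p 0.000275), and Clock lower by -0.27 (adjusted p 0.000575). Per1 was higher in AAV-Cre SN by 0.63 (adjusted p 0.0333). Per3 was higher in AAV-Cre PFC by 0.32 (adjusted p 0.0124), and Cry2 was higher in SN by 0.33 (adjusted p 0.00145). In STR Arntl was lower by -0.40 (adjusted p 0.061). Some calls lay close to the threshold and were lost under an alternative. Per2 in PFC was -0.29 (adjusted p 0.0906) and -0.27 without the mouse with 2 labels (adjusted p 0.132, range over alternatives 0.00266 to 0.132). Per2 in SN was 0.37 (adjusted p 0.0924, range over alternatives 0.0309 to 0.116). Nr1d1 in STR was 0.37 (adjusted p 0.095, range over alternatives 0.00106 to 0.128). Cry1 in SN was lost under the likelihood ratio test (adjusted p 0.120, range over alternatives 0.00336 to 0.120). Dbp did not pass in any region, with differences of 0.02, -0.25 and -0.19, but the likelihood ratio test called it in STR (adjusted p 0.0320). That test also gained Nr1d1 in PFC and Per1 and Per3 in STR. Npas2 and Nr1d1 in SN were gained both by that test and by fits of WT libraries only. Of the 25 other clock genes, 35 of 75 differences passed, 17 higher and 18 lower.

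Mice of the same group differed much more in some clock genes than in others. After removing the mean of each model, region and genotype, the SD of log2 levels of Dbp was 0.56 to 0.76 in the Nestin-Cre and 0.35 to 0.38 in the AAV-Cre sets, which places it at percentile 90.6 to 99.0 of all genes. Without the mouse with 2 labels the Nestin-Cre SDs of Dbp were 0.47 in PFC, 0.51 in STR and 0.62 in SN. Over all genotypes Dbp ran from 16.6 to 98.3 cpm in Nestin-Cre PFC, from 29.5 to 98.3 without that mouse, and from 46.2 to 100.05 in AAV-Cre PFC. It was not tested whether the models differ in spread. Nr1d1 had SDs of 0.24 to 0.56 and Arntl of 0.23 to 0.39, both at or above the percentile 73.1 in every set. Clock had SDs of 0.10 to 0.15 and Cry2 of 0.09 to 0.23, at or below percentile 44.7 in every set. Per2 lay at percentile 73.5 to 89.5. Dbp, Nr1d1, Arntl and Per2 thus spread more than most genes, and Clock and Cry2 did not.

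The regions of a mouse were then compared with each other. With group means removed, each clock gene was correlated between PFC and STR, PFC and SN, and STR and SN of the same mice, 60 relations over 16 to 22 mice, with p from 100000 permutations adjusted over the 60. Past an adjusted p of 0.05 were 41 relations, all positive, and 38 of them passed by rank as well. Among the r of all genes these 41 lay at percentile 81.9 (Cry1 between PFC and STR of Nestin-Cre mice) to 99.6. The share of all genes past the same threshold was not counted. The median r of the 10 genes was 0.586 to 0.718 in the 6 pairs of regions, beside 0.117 to 0.286 over all genes. A mouse with a high value in one region tended to have it in the others.

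Dbp went together between all regions. In Nestin-Cre mice PFC went with STR at r = 0.866 and rho = 0.874 over 16 mice (permutation p 1e-05, the smallest value possible with this number of permutations, adjusted p 6e-05), and r was 0.825 without the 2 mice farthest out. PFC went with SN at r = 0.877 and rho = 0.847 (permutation p 3e-05, adjusted p 0.000129), and r was 0.744 without the 2 farthest. In AAV-Cre mice PFC went with STR at r = 0.848 and rho = 0.870 over 21 mice (permutation p 1e-05, adjusted p 6e-05, r = 0.857 without the 2 farthest) and with SN at r = 0.712 and rho = 0.739 over 22 mice (permutation p 0.00016, adjusted p 0.0006, r = 0.669 without the 2 farthest). Dbp was on the same side of its group means in all 3 regions in 13 of 15 Nestin-Cre and 18 of 21 AAV-Cre mice. None of these relations rests on the 2 farthest mice.

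Arntl passed in all 6 relations too, with r from 0.694 to 0.908 (highest adjusted p 0.00149), and r stayed at 0.581 or above without the 2 farthest mice. So did Nr1d1 (r 0.719 to 0.916), Per3 (0.665 to 0.775) and Cry1 (0.533 to 0.790). For Per3 between PFC and SN of Nestin-Cre mice r fell from 0.719 to 0.339 without the 2 farthest mice, so that relation rests on them. Per2 passed in 4 of 6, Npas2 and Per1 in 3, and Cry2 in 1. Clock passed in 0 of 6, by Pearson or by rank, with 0 under an unadjusted p of 0.05 and r from -0.387 to 0.316. Its lowest, between PFC and SN of AAV-Cre mice, had a permutation p of 0.0752 and an adjusted p of 0.0981. Clock was on 1 side in all 3 regions in 7 of 15 and 2 of 21 mice.

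**Figure D3:**
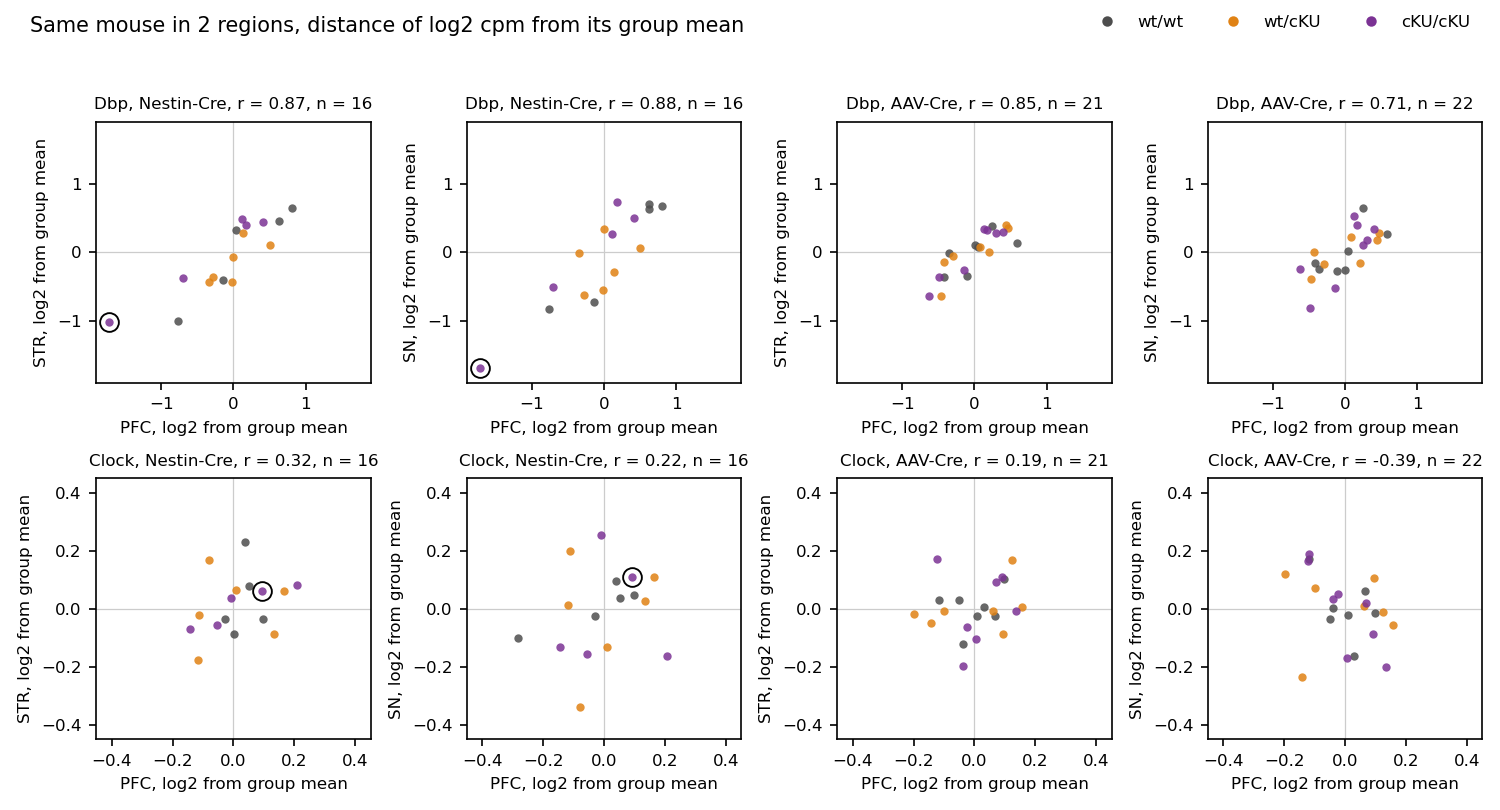
Dbp (top) and Clock (bottom) in PFC (horizontal axis) against STR or SN (vertical axis) of the same mouse, as log2 cpm with group means removed; each point is 1 mouse and the mouse with 2 labels is ringed. Dbp lies along the diagonal in all panels (r 0.712 to 0.877), and Clock does not (r -0.387 to 0.316).

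The mouse with 2 labels stood at the edge of this pattern in all of its regions. Relative to its group means, its Dbp was the lowest of 18 Nestin-Cre libraries in PFC (16.6 cpm), of 19 in STR (97.1 cpm) and of 19 in SN (16.3 cpm), and its Arntl was the highest in each (77.9, 79.5 and 34.9 cpm). Its Nr1d1 was the lowest in PFC at 69.0 cpm, its Cry1 the highest in PFC and STR at 29.6 and 50.2 cpm, and its Clock was unremarkable. Without this mouse 40 of 60 relations between regions passed. Dbp in Nestin-Cre mice then gave r = 0.872 (PFC and STR), 0.817 (PFC and SN) and 0.834 (STR and SN), all past the threshold. The relation lost was Cry1 between PFC and STR, at r = 0.447 with an adjusted p of 0.129 in place of r = 0.561. Per3 between PFC and SN gave r = 0.551 with an adjusted p of 0.0498.

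Within a region, clock genes were correlated with each other over mice, 45 pairs in 6 sets, 270 relations over 18 to 22 mice. Past an adjusted p of 0.05 were 93, of which 60 were positive and 33 negative, and 81 passed by rank as well. Pairs of all genes also go together within a region, and this was counted after the data were seen. The median size of r over pairs of clock genes was 0.32 in PFC, 0.439 in STR and 0.398 in SN of Nestin-Cre mice, beside 0.238, 0.29 and 0.303 over all pairs of genes. In AAV-Cre mice it was 0.32, 0.427 and 0.491, beside 0.204, 0.202 and 0.202. At or above the smallest size of r that passed in a set lay 15.6%, 42.2% and 42.2% of the clock gene pairs in PFC, STR and SN of Nestin-Cre mice, beside 9.29%, 18.1% and 19.8% of all pairs. In AAV-Cre mice these shares were 24.4%, 40% and 42.2%, beside 7.13%, 6.31% and 6.16%. The pairs of clock genes thus had the larger median and share in every set, and neither this nor the difference between models was tested. Leaving out the 2 farthest mice changed the sign of 0 of the 93. Arntl and Dbp stood in 30 of them each, Per3 in 29 and Nr1d1 in 24, against 1 of 54 for Clock.

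Arntl and Dbp went in opposite directions in every set. In Nestin-Cre mice r was -0.952 in PFC (rho -0.942, permutation p 1e-05, adjusted p 0.000245, n = 18, r = -0.890 without the 2 farthest), -0.810 in STR and -0.901 in SN. In AAV-Cre mice it was -0.817 in PFC (rho -0.807, permutation p 1e-05, adjusted p 0.000245, n = 22, r = -0.813 without the 2 farthest), -0.821 in STR and -0.657 in SN. A mouse low in Dbp was a mouse high in Arntl. Without the mouse with 2 labels r was -0.909 in PFC, -0.748 in STR and -0.873 in SN of Nestin-Cre mice, all past the threshold.

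Nr1d1, which represses Arntl, was also opposite to it in all 6 sets, with r from -0.791 to -0.653 (highest adjusted p 0.00452). Nr1d1 and Dbp, both driven by the ARNTL pair, went together in all 6, with r from 0.819 to 0.855 (highest adjusted p 0.000318). Per3 went with Dbp in all 6, with r from 0.715 to 0.825, and against Arntl, with r from -0.809 to -0.611. Without the mouse with 2 labels the last relation was lost in Nestin-Cre SN, at r = -0.448 with an adjusted p of 0.145 in place of r = -0.611. Among all pairs 86 of 270 passed without that mouse.

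Other pairs passed in most sets. Arntl and Npas2 went together in 5 of 6, with r from 0.398 to 0.797. Without the mouse with 2 labels Nestin-Cre STR was lost (r = 0.495, adjusted p 0.0987). Per1 and Per2 did so in 5 of 6, from 0.243 in Nestin-Cre PFC (adjusted p 0.458) to 0.914 in Nestin-Cre SN. Per3 and Cry2 did so in 5 of 6, with r from 0.175 to 0.824. Per2 and Cry1 passed in AAV-Cre PFC (r = 0.776, adjusted p 0.000245) and STR (r = 0.540, adjusted p 0.0371) and in 0 of the 3 Nestin-Cre sets, where 0 had an unadjusted p under 0.05 and r was -0.0199 to 0.454; the difference between the models was not tested. Clock passed once, against Dbp in Nestin-Cre STR at r = -0.570 (rho -0.449, permutation p 0.0109, adjusted p 0.035, n = 19), and not by rank (adjusted p 0.131).

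**Figure D4:**
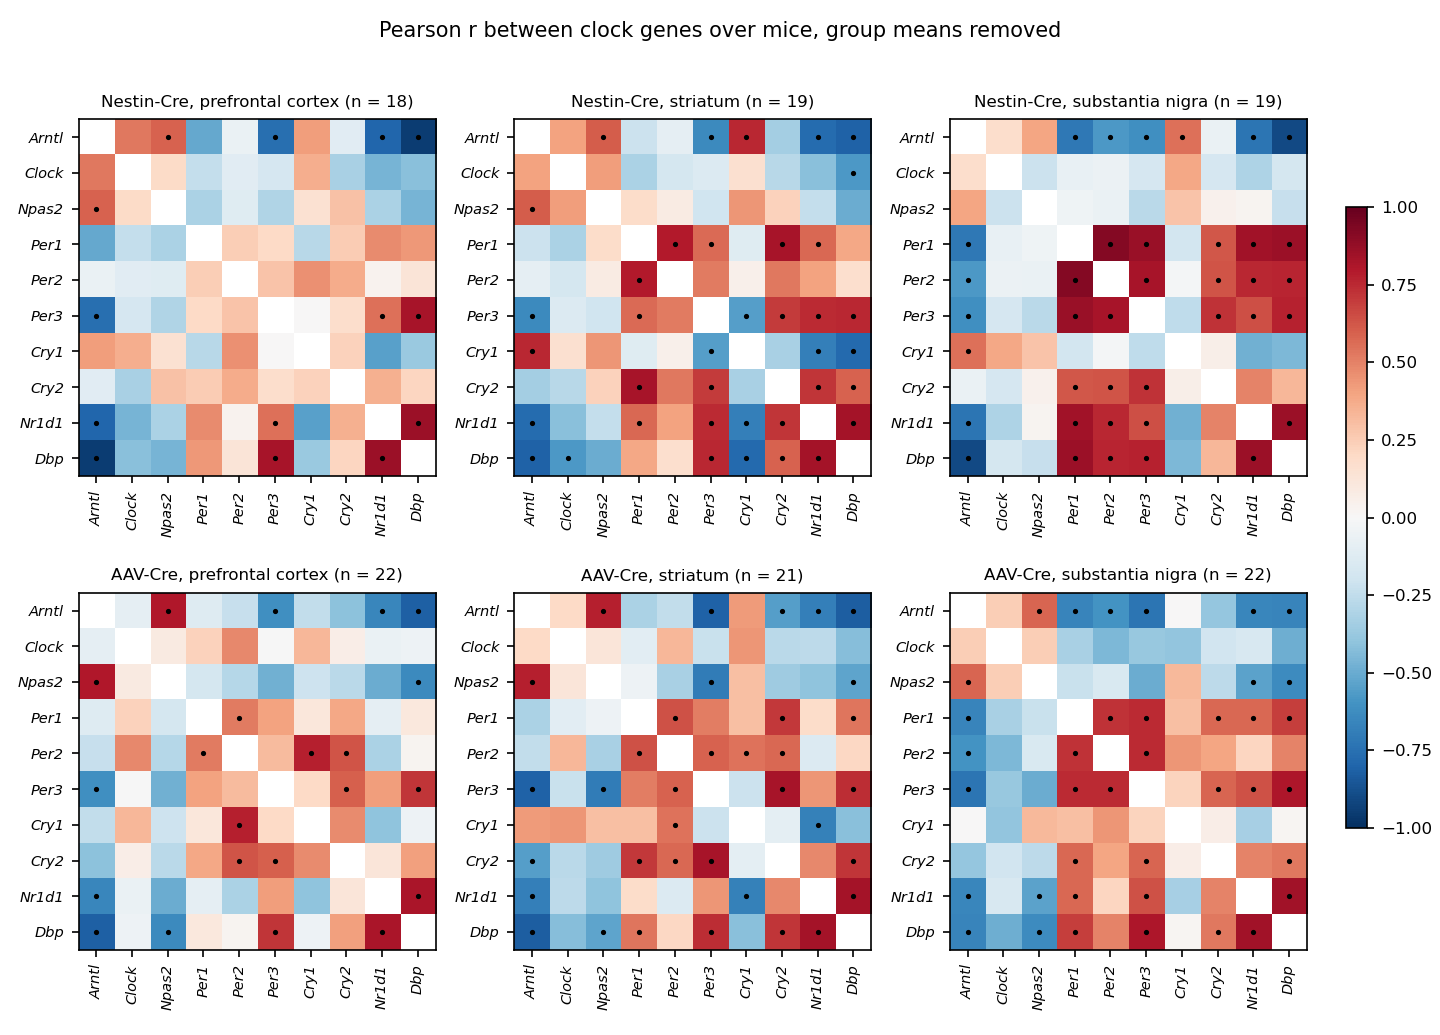
Pearson r between clock genes over mice of a region, for each model and region (6 panels, colour from negative to positive, group means removed); dots mark an adjusted p under 0.05. Arntl is negative with Dbp (r -0.952 to -0.657), Nr1d1 and Per3 in every panel, and the Clock row carries 1 dot.

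A first principal component of the 10 genes, scaled to unit SD, took 44.2% of their variance in PFC, 51.9% in STR and 54.3% in SN of Nestin-Cre mice, and 40.7%, 49.3% and 52.0% in AAV-Cre mice. Dbp, Nr1d1, Per1, Per2, Per3 and Cry2 had loadings of 1 sign in all 6 sets, and Arntl and Npas2 had the other sign in all 6. Clock had a loading between -0.27 and 0.07.

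The genes most like Dbp over mice were sought among the 13792 genes kept in all 6 sets, by the median of r over the sets, described without a p. Ciart came first with a median r of 0.879 (0.760 to 0.938), followed outside the 10 genes by Usp2 (0.805), Bhlhe41 (0.795), Nr1d2 (0.753), Tspan4 (0.720) and Tef (0.692). Of these 6, all but Tspan4 are on the list of 25 other clock genes. Nr1d1 ranked 2nd and Per3 5th of all genes, and Arntl was the most opposite gene of all. Outside the 10 genes the most opposite were Ccpg1 (-0.751), Chordc1 (-0.701) and P4ha1 (-0.700).

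Arntl was most like Hsph1 (median r 0.713), Mettl16 (0.675), Stip1 (0.664), Cldn5 (0.659), Trim9 (0.651) and Ahsa1 (0.642), of which Hsph1, Stip1 and Ahsa1 code for heat shock chaperones or their co-chaperones. Outside the 10 genes it was most opposite to Ciart (-0.877), Nr1d2 (-0.793) and Tspan4 (-0.763). Outside the 10 genes Per1 was most like Tob2 (0.687), Pitpnm2 (0.664), Trib1 (0.636), Sik1 (0.615), Foxj2 (0.609) and Epha8 (0.599). Per2 ranked 2nd and Cry2 7th of all genes for Per1. The sign turned in at least 1 set for Pitpnm2 (-0.123 to 0.7999) and Epha8 (-0.154 to 0.871). Its most opposite genes were Hnrnpc (-0.607), Ndufaf5 (-0.606) and Emc7 (-0.587).

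Since Per1 and Per2 can respond to neuronal activity and to glucocorticoids, each clock gene was set beside an index of 12 immediate-early genes and an index of 10 glucocorticoid-responsive genes, 120 relations in all. Past an adjusted p of 0.05 were 8, and 4 of them passed by rank. How many of all genes go with these indices was not counted, so the 8 cannot be set beside a background. With genotype means kept only 2 passed, Dbp and Nr1d1 with the glucocorticoid index in Nestin-Cre STR, and the other 6 had adjusted p from 0.0531 to 0.105. Per1 went with the immediate-early index in Nestin-Cre PFC at r = 0.753 and rho = 0.7998 (permutation p 0.00022, adjusted p 0.0088, n = 18, r = 0.852 without the 2 farthest). In Nestin-Cre STR the glucocorticoid index went with Dbp at r = 0.782 and rho = 0.828 (permutation p 0.00014, adjusted p 0.0084, n = 19, r = 0.703 without the 2 farthest), with Nr1d1 at 0.763 and Per3 at 0.658, and against Arntl at -0.668 and Cry1 at -0.641. Per2 went with it in AAV-Cre SN at r = 0.695 (rho 0.711, permutation p 0.00031, adjusted p 0.0093, n = 22, r = 0.602 without the 2 farthest). Npas2 went with the immediate-early index in Nestin-Cre SN at r = 0.677, and at 0.425 without the 2 farthest mice. Glucocorticoids follow the time of day themselves, so an index of their response and the phase of the clock cannot be told apart here.

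Markers of tissue make-up were set beside the genotypes and beside Npas2. Of 132 differences of 11 marker and response indices between genotypes, 0 passed by exact permutation, with 15 under an unadjusted p of 0.05 and a lowest adjusted p of 0.242. The lowest p was for oligodendrocyte markers in Nestin-Cre HET PFC (difference -0.44, exact p 0.003), and the difference of striatal markers there was -0.82 (exact p 0.00366). In Nestin-Cre HOM PFC the differences were -0.44 for oligodendrocyte (exact p 0.0182) and -0.70 for striatal markers (exact p 0.0303), and in HET STR -0.46 for striatal markers (exact p 0.00874). The immediate-early index, which Per1 follows in Nestin-Cre PFC, differed by 0.67 in HET (exact p 0.027) and 0.57 in HOM PFC (exact p 0.2). The differences of Dbp, Nr1d1 and Per1 given above lie in these groups, and the part of tissue make-up or activity in them was not tested. After the values were seen, the clock genes were also set beside striatal markers in PFC and SN and cortical markers in STR and SN, and 0 of these 80 relations passed. The highest was Npas2 in Nestin-Cre SN with striatal markers, at r = 0.715 (permutation p 0.00219, adjusted p 0.175) and 0.395 without the 2 farthest mice. The part of carried-over tissue in the level of Npas2 in SN was not tested further.

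The promoters were read for the letters that clock proteins bind. RefSeq windows of build GRCm38.p6, from 250 bases before to 50 after a start, were at hand for 9 of the 10 genes, 13 windows in all, and none for Per2. The E-box CACGTG was in windows of Cry1 and Per1, and in 7.15% of all 32851 windows, read on both strands. The E-prime box CACGTT was in windows of Cry1, Cry2 and Nr1d1 (4.68% of all windows), and the nuclear receptor letters AGGTCA in windows of Arntl, Clock and Per1 (16.3%). The D-box TTATGTAA was there 2 times in the window of Per3 (0.938% of all windows), while the D-box TTACGTAA (0.119%) and the CRE TGACGTCA (1.79%) were in none. The E-prime boxes of Cry1 and Cry2 are not shown. The stretches below show the E-boxes, the E-prime box of Nr1d1 and the 2 D-boxes. They are written with the motif in capitals, 5′ to 3′ on the strand of the gene, and AACGTG is CACGTT read from the other strand. They lie at chr10:85185097-85185126 (Cry1, minus), chr11:69098771-69098800 (Per1, plus), chr11:98775388-98775417 (Nr1d1, minus) and chr4:151044804-151044882 (Per3, minus).
Cry1 E-box: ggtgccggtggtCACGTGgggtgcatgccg
Per1 E-box: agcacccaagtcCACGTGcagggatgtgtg
Nr1d1 E-prime box: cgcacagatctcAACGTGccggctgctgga
Per3 D-box: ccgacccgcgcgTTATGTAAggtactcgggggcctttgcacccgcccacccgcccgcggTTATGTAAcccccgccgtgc
A match is a run of letters only, and no binding was measured here.

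These results have limits. RNA was measured at 1 unknown time per mouse, so no rhythm, phase or amplitude could be measured, and protein was not measured. Several mice may have been collected at different hours, and the part of this in the spread between mice and in the relations between regions and genes was not tested. Groups had 4 to 8 mice. The intervals of Dbp in Nestin-Cre HET mice, -1.31 to -0.14 in PFC and -1.39 to 0.12 in SN, show how large a difference could go uncalled. Differences between the models carry age, injection and transgene together. Tissue pieces hold mixed cells, and the make-up of each piece was seen only through marker RNA.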

How the data were processed

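Bulk RNA was sequenced by the authors with TruSeq Stranded mRNA libraries from 200 ng of RNA (75 bp single-end reads, bcl2fastq 2.20.0.422), aligned to mm10 with STAR 2.5.2b and counted per gene with featureCounts 1.5.1. The strand setting of the counting is not stated. The values used are the raw counts per gene deposited by the authors, for 24412 genes. Total counts ran from 9869584 to 26750905, and the 10 most abundant genes held at most 6.14% of a library. Replicate libraries were checked to be distinct.

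Genes that reached 1 cpm in 3 or more libraries were kept, scaled by TMM and fitted with quasi-likelihood tests of edgeR 4.0.16 in R 4.3.3, with p adjusted by Benjamini-Hochberg over all genes of a comparison and a threshold of 0.1. HET and HOM were compared with WT in each model and region, regions within WT mice, genotype differences between regions by interaction, and models within WT mice. Libraries of a mouse were treated as independent, with mouse as a paired block as an alternative. Regions were paired by the mouse number in the labels, and the median r of all genes between paired regions was 0.117 to 0.286. Mismatched pairs were not computed, so this value cannot show that each mouse is paired rightly.

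Correlations used log2(cpm + 0.5) with the mean of each model, region and genotype removed, Pearson r and Spearman rho, and 100000 two-sided permutations, adjusted within each family of 60, 270 or 120 relations at 0.05. Marker and response indices were compared by exact permutation. Python 3.11.15, NumPy 2.4.6, SciPy 1.17.1 and pandas 2.3.3 were used, and the tests were tried on simulated data.

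All 10 clock genes were tested and counted in every comparison, and those called or with the lowest p are named, with Gdnf as the check of labels. Of 25 other clock genes, Nr1d2, Rora, Rorb, Tef, Hlf, Nfil3 and Ciart and some of the largest differences between regions are named. Not every large difference of that list is given. For Dbp, Arntl and Per1 the 6 most alike and 3 most opposite genes are named. The genes and lists were chosen with earlier results of these data known.

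Alternatives were a likelihood ratio test, DESeq2 1.42.0, its size factors in edgeR, no filter, for genotypes a threshold of 0.05 and fits of 2 genotypes or of all regions, for regions and models fits of WT libraries only, mouse as a block, leaving out the mouse with 2 genotype labels and each Nestin-Cre HOM PFC mouse, and for correlations scaling by total count, genotype means kept, or WT mice only. No library was left out of the main comparisons.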

Additional observations from a re-analysis of the deposited data

Results flagged for a closer look

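In 8 of 180 groups of 4 to 8 mice, 1 library lay far from the others of its group for a clock gene. Chance alone gives about 1 in 20 such groups, so the number is near what chance would give, and none was left out. The cause was not tested for any of them.

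In AAV-Cre mice, Cry2 was 205 cpm in the PFC of 1 WT mouse, with the other 6 at 168 to 180.1 cpm. Clock was 130 cpm in the STR of 1 HET mouse, against 109 to 116 cpm. Nr1d1 was 108 cpm in the STR of 1 HET mouse, against 141 to 163 cpm, and 104 cpm in the STR of 1 WT mouse, against 127 to 146 cpm. Per2 was 20.5 cpm in the SN of 1 HOM mouse, against 26.0 to 32.0 cpm. Cry1 was 13.3 cpm in the SN of 1 WT mouse, against 15.8 to 17.4 cpm.

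In Nestin-Cre mice, Clock was 106 cpm in the PFC of 1 WT mouse, against 127 to 138 cpm. Npas2 was 25.7 cpm in the SN of 1 HET mouse, against 6.10 to 11.1 cpm. In that library the summed striatal markers were 1412 cpm, the highest of the set, whose median was 272 cpm.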

How the results depend on the processing

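The count of clock genes called by genotype was 0 under DESeq2, its size factors in edgeR, no filter, a threshold of 0.05, fits of 2 genotypes or of all regions, without the mouse with 2 labels, and 0 to 0 when each Nestin-Cre HOM PFC mouse was left out. Under the likelihood ratio test it was 7, Dbp in 5 comparisons and Nr1d1 and Per1 in 1 each, where that test called 2.36% of all genes. It took the spread of a gene from the trend alone, while the main test also used the gene's own spread. The part of this setting in the 7 calls was not tested.

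The count for interactions was 0 under the alternatives other than mouse as a paired block, which gave 1. DESeq2 and its size factors were added for interactions after seeing the data. Correlations with the activity and glucocorticoid indices past the threshold numbered 8, and 2 with genotype means kept; the cause was not tested.

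Other counts stayed within 1.5 times their value: 42 to 49 region differences, 9 to 17 model differences, 40 to 44 relations between regions and 86 to 97 pairs within a region. The median spread between mice was 0.24 to 0.246. Of values for single genes, 480 kept their direction and side of the threshold, 31 came to pass it, 11 ceased to pass it and 0 reversed. In WT mice only, correlations were computed without a test: 2 of the 93 pairs past the threshold changed sign, Arntl and Cry1 in Nestin-Cre SN (r = -0.0675 against 0.551) and Per1 and Per2 in AAV-Cre PFC (r = -0.0712 against 0.518). Depth limits Npas2 in SN most, with 54 counts in the lowest library.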
